A study of Mus musculus with 8 samples.

Results

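Rab proteins are small GTPases that mark the membranes of a cell and direct vesicles from one compartment to the next. An exchange factor loads a Rab with GTP, effector proteins such as tethers and motors then bind it, and a GTPase-activating protein returns it to the GDP form, which GDI lifts off the membrane. In endothelial cells Rab-directed traffic carries VEGF receptors and VE-cadherin between the surface and endosomes, and it moves Weibel-Palade bodies, the granules that hold von Willebrand factor, to the surface. The Rab genes were taken here as every listed gene whose symbol is Rab followed by a number and at most a letter and a further digit. This rule gave 59 of the 24394 gene symbols shared by all libraries, and it used no measured value. By textbook role, 18 were grouped as endocytic, 9 as recycling, 27 as secretory and 5 as other.

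The RNA came from endothelial cells that had been sorted by flow cytometry from brains of C57BL/6J mice at postnatal day 8, in 2 groups of 4 libraries. WT libraries were from wild-type mice. YT-ECKO libraries were from mice carrying VE-cadherin-CreERT2 with floxed Yap and floxed Taz, in which an inducible Cre driven by an endothelial promoter acts on both genes. The labels give neither Cre nor inducer for the wild type, so deletion, Cre, floxed alleles and any inducer cannot be told apart here. They also do not say whether each library was a separate mouse, and p-values then measure only the spread between these libraries, which may be technical. Values are given as scaled reads, meaning read counts that the authors scaled to a common library size, on the linear scale and not divided by gene length. Levels are therefore compared between groups for 1 gene and not between genes.

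Library totals lay between 10.3 and 10.9 M scaled reads, and the smallest steps between low values put the depth at 6.76 M reads (YT-ECKO 1) to 16.8 M reads (WT 1). Genes above 0 numbered 8621 to 9720 in WT and 7538 to 8762 in YT-ECKO. All 10 endothelial markers, Pecam1 and Cdh5 among them, were above 0 in every library, with summed levels of 7990 to 9670 CPM (scaled reads over the library total in M) in WT and 8460 to 11170 CPM in YT-ECKO. The 10 mural markers summed to 37.8 to 165.2 CPM in WT and at most 108.5 CPM in YT-ECKO, with Anpep at 0 throughout. The 7 erythroid markers, which include hemoglobin genes, summed to 1713, 4618, 2810 and 2223 CPM in WT 1 to 4 and to 5807, 1673, 4316 and 5460 CPM in YT-ECKO 1 to 4, and their part in the results was not tested. Of the targeted genes, Wwtr1, which encodes TAZ, stood at 8220, 5906, 6756 and 5650 scaled reads in WT 1 to 4 and at 348, 2608, 1261 and 1124 in YT-ECKO 1 to 4. Yap1 stood at 2833, 1726, 1409 and 1887 scaled reads in WT and at 9.29, 605, 293 and 402 in YT-ECKO, so both genes were lower in every YT-ECKO library than in any WT library.

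Rab genes are a family of close copies, and it matters whether reads can tell them apart. In 57 of the 59 genes the longest coding sequence of GENCODE release M21 (GRCm38) held the P-loop, which grips the phosphates of the bound nucleotide, searched as codons for glycine, any 4 residues, glycine, lysine, and serine or threonine. Rab40b and Rab40c did not hold it in this form. In 50 of the 59, at least 2 cysteine codons lay among the last 5 codons, the end at which Rab proteins receive their geranylgeranyl lipid anchors, and the other 9 had 1. The 24 coding bases of the P-loop are shown for 9 members on which the results below turn, with the codons for its closing glycine, lysine and serine or threonine in capitals. They show that copies differ in their bases even at this conserved stretch.
Rab5a: ggagagtctgctgttGGCAAATCA
Rab5b: ggagagtctgcagtgGGGAAGTCT
Rab5c: ggcgagtctgccgtgGGCAAGTCC
Rab7: ggggactctggtgttGGAAAGACC
Rab4a: ggaaatgcgggaactGGCAAATCT
Rab11a: ggagattctggtgttGGAAAGAGT
Rab11b: ggggactcaggtgtaGGTAAGAGC
Rab8a: ggggactcgggggtaGGGAAGACC
Rab8b: ggcgactccggcgttGGCAAGACC

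Over whole coding sequences, 77.5% of aligned positions were identical between Rab8a and Rab8b, 75.2% between Rab11a and Rab11b, and 74.4% between Rab5a and Rab5b. Rab5c and Rab7, which belong to different branches of the family, were identical at 50.5% of positions. No stretch of 50 bases was shared between the transcripts of Rab5a, Rab5b and Rab5c, of Rab8a and Rab8b, or of any of the other 6 pairs compared. Among all members, only Rab11b and Rab4b shared such stretches with another member, 21 each. Of the 59 genes, 37 shared no 50-base stretch with a transcript of any other gene, and 3 shared more than 10% of theirs. These were Rab43 (74.5%, with the overlapping gene model Gm45140), Rab4b (58.1%, with the overlapping Gm21983) and Rab7 (11.2%, chiefly with the processed pseudogene Rab7-ps1). Their counts are uncertain by a share of reads that is not known, since which part of a transcript was read is not settled. Exons on the opposite strand overlapped those of Rab24 by 1258 bases (Prelid1), Rab6a by 708 (Mrpl48), Rab5a by 221 (Pp2d1), and Rab2b by 2469 (the provisional model Gm43766) and 195 (Tox4). Among other tested members, opposite-strand non-coding or provisional models overlapped Rab33b by 661 bases and Rab11b by 329, and the remaining overlaps were of 204 bases or fewer. The strand setting of the counting was not given in the sources used here, so reads of such partners cannot be told apart.

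A core set of Rab transcripts was present in every library, and nearly as many members were at 0 in most or all of them. Of the 59 genes, 26 (44.1%) were above 0 in all 8 libraries, 10 in 4 to 7, 10 in 1 to 3, and 13 (22.0%) were listed at 0 in all 8. Over all 24394 symbols, 19.9% were above 0 in all 8 libraries and 47.0% were listed at 0 in all 8. The members at 0 throughout were Rab9b, Rab20 and Rab36 among the endocytic genes, Rab25 among the recycling genes, Rab3b, Rab19, Rab26, Rab33a, Rab37, Rab39, Rab39b and Rab44 among the secretory genes, and Rab40b. Rab25 is known as an epithelial Rab, Rab3b and Rab26 act in regulated secretion, and Rab39b is known for its role in neurons. Other members known from neurons or secretory granules were detected, with Rab3a above 0 in 7 libraries, Rab6b in 6 and Rab3d in 4. Counted by library, 36, 39, 36 and 35 members were above 0 in WT 1 to 4, and 34, 34, 35 and 35 in YT-ECKO 1 to 4. Depth was 6.76 M reads in YT-ECKO 1 (34 members), 7.54 M in WT 2 (39) and 16.8 M in WT 1 (36). Its part in these counts was not tested.

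**Figure D1:**
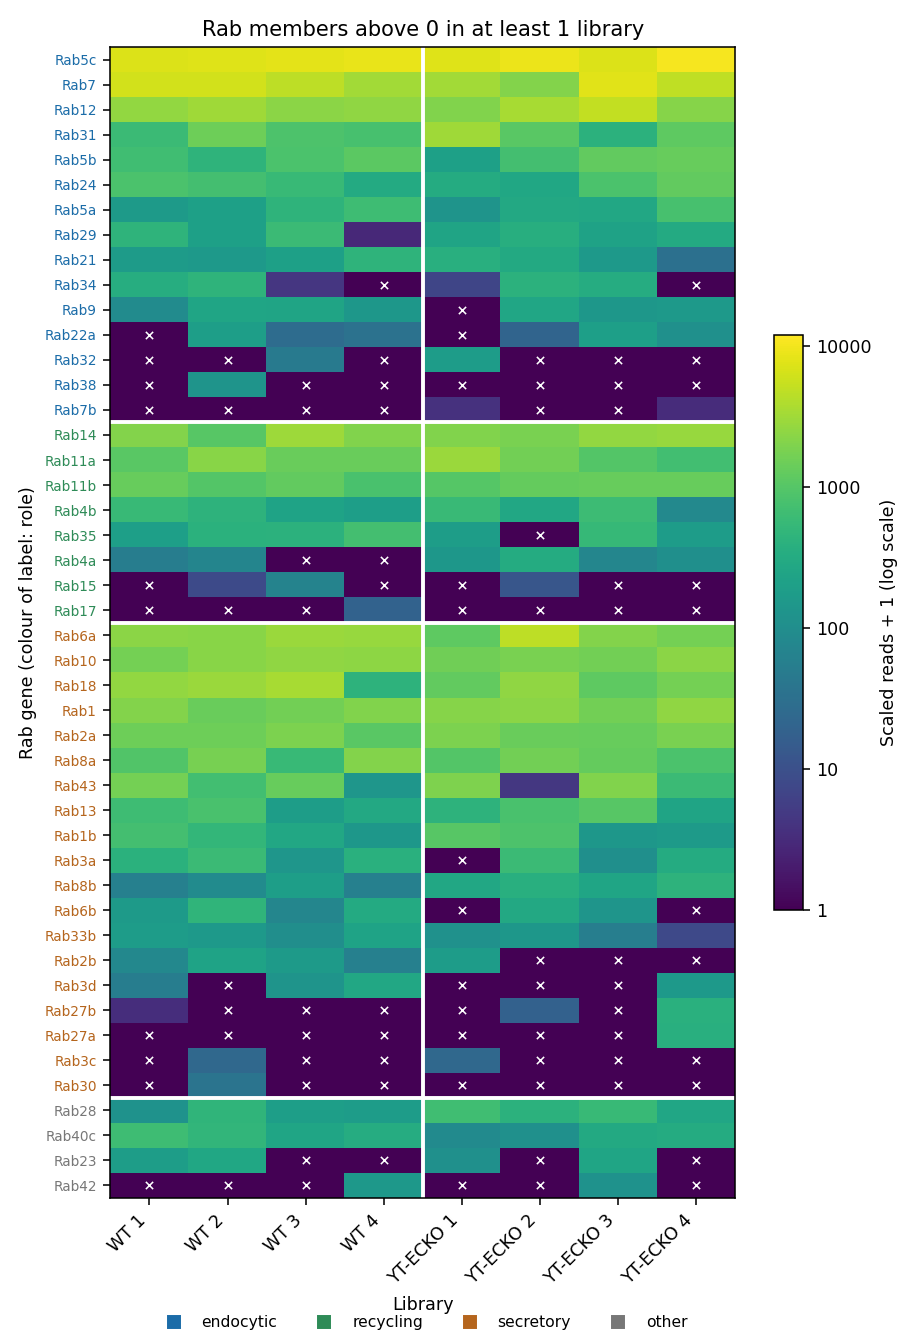
Scaled reads plus 1 (colour, log scale) of the 46 Rab members above 0 in at least 1 library, in 4 WT and 4 YT-ECKO libraries. Rows are grouped by role, white crosses mark a listed 0, and the order of rows within a role serves display only. The 26 members above 0 in all 8 libraries carry no cross. Colours are to be compared along a row, since values are not per length.

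Some members listed at 0 in 1 library had high values in another library of the same group. A single read was worth 0.614 to 1.53 scaled reads, and where it was worth less than 1 its log2 value would be negative, which no deposited value was. Of the 37 members with at least 100 scaled reads in a WT library, 6 were listed at 0 in another WT library (16.2%, against 33.4% of all genes that reached that level). In YT-ECKO this held for 13 of 40 members (32.5%, against 45.3% of all genes). Rab22a, Rab23, Rab34, Rab3d and Rab42 did so in both groups. Fewer cells that carry a transcript and less RNA of it per cell cannot be told apart in these bulk libraries, and neither was tested as a source of these zeros. The part of library depth, 6.76 to 16.8 M reads, in these zeros was not tested.

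No Rab gene passed the comparison of YT-ECKO with WT. Testing required 4 or more libraries with 10 or more scaled reads, which 36 of the 59 members met, and the test was limma with trended, robust moderation on log2 of scaled reads plus a pseudocount. Of these 36, 0 passed a Benjamini-Hochberg adjusted p of 0.05 over all 8706 genes tested, and the lowest adjusted p was 0.928. Over all tested genes 0.0345% passed (3, each lower in YT-ECKO). Wwtr1 was among them (limma adjusted p = 0.0113). Yap1, with a log2 difference of -2.39, was not (limma adjusted p = 0.175), so a fall of that size can miss the threshold here. At an unadjusted limma p under 0.05 there were 0 Rab members, against 5.47% of all tested genes (3.69% lower and 1.78% higher in YT-ECKO). As a second method, voom with quality weights, also part of limma, gave 0 members past the adjusted threshold. It was run on read counts rebuilt by dividing the scaled reads by each library's smallest step and rounding, and not on the original counts. The count at an unadjusted p under 0.05 was 2 of 36 with voom (Rab2b lower, Rab4a higher) and 2 of 46 with no filter on low values (Rab4a and Rab8b, both higher). At the pseudocount used, fitted differences ran from -0.82 (Rab35) to 1.02 (Rab8b), with 20 members lower and 16 higher in YT-ECKO and a median of -0.03. The median over all tested genes was -0.09, and 56.9% of them had lower values in YT-ECKO, against 55.6% of the Rab members.

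**Figure D2:**
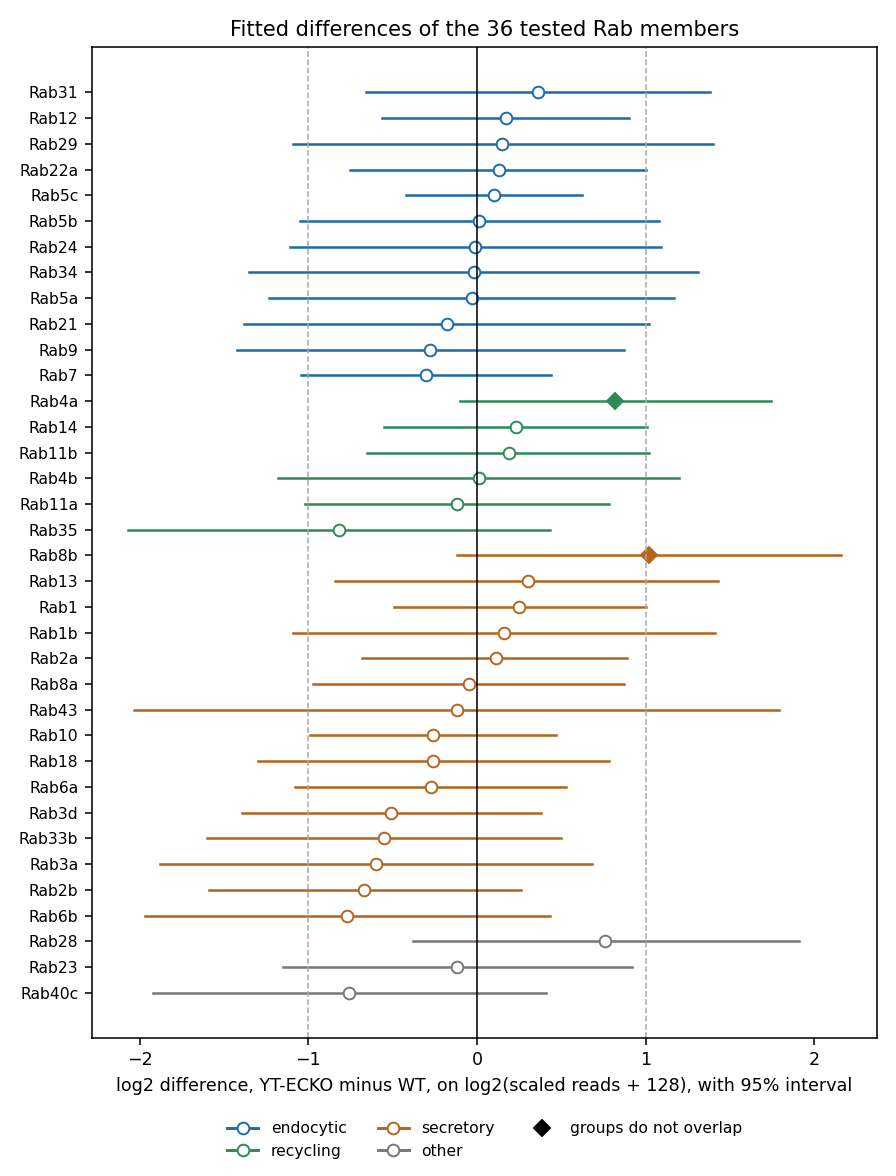
Fitted log2 difference, YT-ECKO minus WT, of each of the 36 tested Rab members with its 95% confidence interval, coloured by role, on the scale of log2 of scaled reads plus the pseudocount. Filled diamonds mark Rab8b and Rab4a, whose groups did not overlap, and every interval crosses 0.

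The width of the intervals sets what these libraries could show. From the estimate to either bound, the 95% confidence interval had a median width of 1.04 log2 units over tested Rab members and 1.10 over all tested genes. For 6 members the whole interval lay between -1 and 1: Rab5c, Rab12, Rab1, Rab2a, Rab8a and Rab10. For these a doubling or halving on that scale lay outside the interval, and for the other 30 a change of that size was not detectable or not bounded. The spread within groups, as a pooled SD of log2 values, had a median of 0.63 over the tested Rab members and 0.69 over all tested genes. Over all 8 libraries 5 tested members (13.9%) kept their highest value under 2 times their lowest, against 3.60% of all tested genes: Rab5c, Rab10, Rab11b, Rab2a and Rab1.

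The endocytic group had the narrowest range of differences. Of its 12 tested members, 6 were lower and 6 higher in YT-ECKO, the median was 0.00, and the fitted differences ran from -0.30 to 0.36. None of the 12 had groups without overlap, against 3.4% of all tested genes. Rab5 proteins organise the early endosome, where internalised receptors are first sorted. Rab5c (chromosome 11, 100715009 to 100738215, minus strand) stood at 7352, 7559, 8035 and 8823 scaled reads in WT 1 to 4 and at 7617, 8952, 7378 and 10391 in YT-ECKO 1 to 4. It was the steadiest member, with a highest value 1.41 times the lowest, and the groups overlapped. Its log2 difference was 0.10 ± 0.25 (SE), with a 95% interval from -0.42 to 0.62 and a limma adjusted p of 0.991.

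Its paralogs varied more from library to library. Rab5a (chromosome 17, 53479234 to 53507680) stood at 165, 205, 445 and 643 scaled reads in WT and at 129, 289, 283 and 766 in YT-ECKO, with group means of 364 ± 223 and 367 ± 276 (SD, n = 4 each). Rab5b (chromosome 10, 128677175 to 128696264) stood at 670, 450, 833 and 1136 in WT and at 205, 727, 1268 and 1336 in YT-ECKO. Both were high in WT 4 and YT-ECKO 4 and lowest in YT-ECKO 1, and for both the YT-ECKO range enclosed that of WT. The fitted differences were -0.03 ± 0.58 for Rab5a and 0.01 ± 0.52 for Rab5b (SE).

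Late endosomal members were also spread within the groups rather than between them. Rab7 (chromosome 6, 87999106 to 88045270), which drives maturation to late endosomes and fusion with lysosomes, stood at 6247, 6313, 4725 and 3283 scaled reads in WT and at 3225, 2084, 7745 and 4966 in YT-ECKO. The highest and the lowest value both lay in YT-ECKO, and the log2 difference of -0.30 ± 0.36 (SE) had a 95% interval from -1.04 to 0.44. Rab9, which returns mannose 6-phosphate receptors from late endosomes to the Golgi, stood at 93.3, 246, 244 and 141 in WT and at 0, 257, 142 and 162 in YT-ECKO. Rab12, which acts in delivery from recycling endosomes to lysosomes, stood at 2594, 3194, 2312 and 2555 in WT and at 2047, 3473, 5117 and 2175 in YT-ECKO, a difference of 0.17 ± 0.35 (SE). The value of YT-ECKO 3 was the highest for Rab12 as it was for Rab7.

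Rab31, a Rab5-related protein of the trans-Golgi and early endosomes, stood at 603, 1482, 856 and 776 scaled reads in WT and at 3134, 1080, 423 and 1187 in YT-ECKO. Its difference of 0.36 ± 0.50 (SE) was the highest of the endocytic group and rested on YT-ECKO 1; without that library it was -0.08. Rab21, Rab22a, Rab24, Rab29 and Rab34 had differences from -0.18 to 0.15. Rab29, linked to lysosomes and the trans-Golgi, ranged from 1.99 scaled reads in WT 4 to 606 in WT 3. Rab34 was at 336 to 444 in WT 1, WT 2, YT-ECKO 2 and YT-ECKO 3 and at or below 6.22 in the other 4 libraries.

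Recycling Rabs return cargo from endosomes to the plasma membrane, quickly through Rab4 and Rab35 and more slowly through Rab11. Of the 6 tested members, 2 were lower and 4 higher in YT-ECKO, with a median difference of 0.10. In 1 of the 6 (16.7%) the groups did not overlap, against 3.4% of all tested genes. Rab4a (chromosome 8, 123805985 to 123835287, plus strand) stood at 51.6, 71.7, 0 and 0 scaled reads in WT and at 142, 327, 72.9 and 105 in YT-ECKO. Every YT-ECKO library lay above every WT library, though the gap ran only from 71.7 in WT 2 to 72.9 in YT-ECKO 3. The fitted log2 difference was 0.82 ± 0.45 (SE), with a 95% interval from -0.10 to 1.74, a limma adjusted p of 0.928 and an unadjusted p of 0.0784. With a pseudocount of 1 the difference was 4.14, and with voom 4.43. The two-sided exact permutation p was 0.0286, the smallest that 4 libraries against 4 allow. Every gene whose groups do not overlap has this p, which is not adjusted for the number of members. Rab4b stood at 353 ± 170 scaled reads in WT and 391 ± 256 in YT-ECKO (SD, n = 4 each), a difference of 0.01 ± 0.58 (SE).

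The Rab11 pair is the hallmark of the recycling endosome. Rab11a (chromosome 9, 64715299 to 64737758) stood at 1098, 2236, 1416 and 1414 scaled reads in WT and at 2900, 1643, 989 and 701 in YT-ECKO. The YT-ECKO values enclosed those of WT, and the means were 1541 ± 487 in WT and 1558 ± 978 in YT-ECKO (SD, n = 4 each). Rab11b (chromosome 17, 33742484 to 33760530) stood at 1331, 970, 1274 and 808 in WT and at 996, 1298, 1348 and 1356 in YT-ECKO. Its log2 difference of 0.19 ± 0.41 (SE) had a 95% interval from -0.65 to 1.02. Rab14, which works between the Golgi and endosomes, stood at 2094, 1036, 3055 and 2054 in WT and at 1993, 1841, 2652 and 2803 in YT-ECKO. The WT values of Rab14 enclosed those of YT-ECKO, and the difference was 0.23 ± 0.38 (SE).

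Rab35, a regulator of fast recycling and of cell contacts, had a fitted difference below 0. It stood at 199, 397, 418 and 723 scaled reads in WT and at 185, 0, 546 and 177 in YT-ECKO. The groups overlapped through YT-ECKO 3, and the difference of -0.82 ± 0.61 (SE) had a 95% interval from -2.07 to 0.43 and a limma adjusted p of 0.981. Without YT-ECKO 2, where Rab35 was listed at 0, the difference was -0.41. Rab15 and Rab17 were too sparse to test, at no more than 65.9 scaled reads (Rab15, WT 3).

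**Figure D3:**
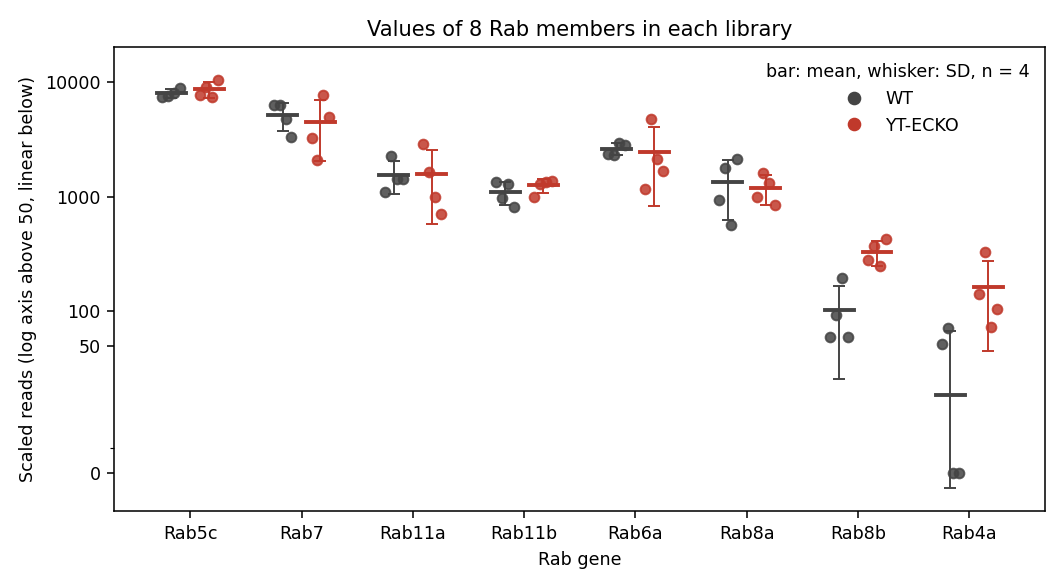
Scaled reads of 8 Rab members in each of 4 WT and 4 YT-ECKO libraries (points), with group means (bars) and SD (whiskers, n = 4). The axis is logarithmic above 50 and linear below. Groups overlap for Rab5c, Rab7, Rab11a, Rab11b, Rab6a and Rab8a, and the YT-ECKO points of Rab8b and Rab4a lie above all WT points.

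Among secretory Rabs, which serve the route from the endoplasmic reticulum through the Golgi to the surface, 10 of 15 tested members were lower and 5 higher in YT-ECKO. The median difference was -0.26, the most negative of the endocytic, recycling and secretory groups, and none of the 10 lower members passed the test. Rab8b gave the single pair of groups without overlap (6.67% of the 15, against 3.4% of all tested genes). Rab8b (chromosome 9, 66843664 to 66919687, minus strand), which with Rab8a directs exocytic carriers to the plasma membrane, stood at 59.5, 91.8, 196 and 59.7 scaled reads in WT and at 280, 367, 250 and 428 in YT-ECKO. The highest WT value, 196, lay below the lowest YT-ECKO value, 250, and the means were 102 ± 64.5 and 331 ± 81.4 (SD, n = 4 each). The fitted log2 difference was 1.02 ± 0.55 (SE), with a 95% interval from -0.12 to 2.16, a limma adjusted p of 0.928 and an unadjusted p of 0.0761. With a pseudocount of 1 the difference was 1.84, and with voom 1.77. The two-sided exact permutation p, unadjusted, was 0.0286, which restates that the groups did not overlap. Of the 50-base stretches of Rab8b transcripts, 5.37% were shared with other genes, chiefly the processed pseudogene Gm20689.

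Counting both directions, 2 of 36 members had groups without overlap (5.56%), against 3.4% of all tested genes. Both were higher in YT-ECKO, where the share over all tested genes was 1.33%, and 0 were lower, where it was 2.07%. With Rn45s, a ribosomal RNA precursor, left out before scaling, or with upper quartile scaling, the groups of Rab4a overlapped and Rab8b alone remained without overlap. Its paralog Rab8a stood at 930, 1760, 568 and 2126 scaled reads in WT and at 982, 1619, 1323 and 849 in YT-ECKO, and its difference of -0.05 ± 0.45 (SE) had a 95% interval from -0.97 to 0.87. Whether the differences of Rab8a and Rab8b themselves differ was not tested.

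Rab1, listed under its older symbol and named Rab1a in the annotation (chromosome 11, 20201432 to 20226856), is needed for transport from the endoplasmic reticulum to the Golgi. It stood at 2104, 1377, 1616 and 2052 scaled reads in WT and at 2209, 2330, 1600 and 2478 in YT-ECKO, a difference of 0.25 ± 0.36 (SE). Rab6a, which acts in traffic at the Golgi and back to the endoplasmic reticulum, stood at 2367, 2293, 2941 and 2790 in WT and at 1154, 4774, 2136 and 1663 in YT-ECKO. The WT values of Rab6a lay close together, and YT-ECKO held both the lowest and the highest value. Rab10, an exocytic Rab, stood at 1686, 2266, 2550 and 2422 in WT and at 1549, 1839, 1633 and 2364 in YT-ECKO, with overlap and a difference of -0.26 ± 0.36 (SE). Rab2a, a Golgi Rab, stood at 1499 ± 321 in WT and 1612 ± 257 in YT-ECKO (SD, n = 4 each). Rab13, which brings cargo to tight junctions, stood at 488 ± 297 and 629 ± 360 (SD, n = 4 each). Rab33b, a Golgi Rab, stood at 169 ± 52.4 in WT and 79.7 ± 61.2 in YT-ECKO, and Rab18, known from lipid droplets and the endoplasmic reticulum, at 2393 ± 1364 and 1652 ± 628 (SD, n = 4 each), with differences of -0.55 ± 0.51 and -0.26 ± 0.50 (SE). Among the 26 members above 0 in every library, Rab43 was the most uneven, from 3.54 scaled reads in YT-ECKO 2 to 2035 in YT-ECKO 3.

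Rab2b, Rab6b and Rab3d were listed at 0 in several YT-ECKO libraries and had differences below the median of the secretory group. Rab2b stood at 80.4, 229, 165 and 59.7 scaled reads in WT and at 180, 0, 0 and 0 in YT-ECKO, a difference of -0.67 ± 0.45 (SE; limma adjusted p = 0.980), which with voom was -6.35 (adjusted p = 0.691). Rab6b, a paralog of Rab6a best known from neurons, stood at 164, 464, 74.5 and 306 in WT and at 0, 292, 134 and 0 in YT-ECKO. Its difference was -0.77 ± 0.58 (SE; limma adjusted p = 0.981). Rab3d, a Rab of secretory granules, stood at 52.2, 0, 130 and 282 in WT and at 0, 0, 0 and 156 in YT-ECKO, a difference of -0.51 ± 0.43 (SE). For all of them the groups overlapped through a single YT-ECKO library or more.

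Rab27a (chromosome 9, 73044854 to 73097629), which docks Weibel-Palade bodies at the actin cortex, was listed at 0 in 7 libraries and at 379 scaled reads in YT-ECKO 4. Rab27b was at 381 in that same library, at 17.7 in YT-ECKO 2, at 2.42 in WT 1 and at 0 elsewhere. Rab3a, a Rab of synaptic vesicles that endothelial cells also use, stood at 382 ± 190 in WT and 259 ± 269 in YT-ECKO (SD, n = 4 each). The 7 neuronal markers summed to 0.546 to 32.3 CPM in WT and 1.69 to 183.4 CPM in YT-ECKO, highest in YT-ECKO 1 (183.4 CPM), where Rab3a was listed at 0, and next in YT-ECKO 4 (80.85 CPM), where Rab27a and Rab27b were high. Syt1 and Syp were at 0 in all libraries. Their part in these values was not tested.

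Of the members with other roles, 3 were tested. Rab28, a Rab of the cilium, stood at 236 ± 152 scaled reads in WT and 477 ± 178 in YT-ECKO (SD, n = 4 each), a difference of 0.76 ± 0.56 (SE). Rab40c, which joins a ubiquitin ligase, stood at 427 ± 174 and 206 ± 124, a difference of -0.76 ± 0.57. Both overlapped between the groups. Rab23, an inhibitor of Hedgehog signalling, was above 0 in WT 1, WT 2, YT-ECKO 1 and YT-ECKO 3.

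Summed over all 59 members, Rab transcripts came to 40712 ± 2786 scaled reads in WT and 41630 ± 2619 in YT-ECKO (SD, n = 4 each). Endocytic members summed to 18149 to 21290 in WT and 17483 to 24119 in YT-ECKO, recycling members to 5153 to 6461 and 5225 to 6804, and secretory members to 12805 to 15785 and 12982 to 17629. The ranges of the 2 groups overlapped for each role. Rab5c and Rab7 together made up 65.3% of the endocytic scaled reads and 31.8% of those over all members. The endocytic sum thus rests largely on these genes.

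**Figure D4:**
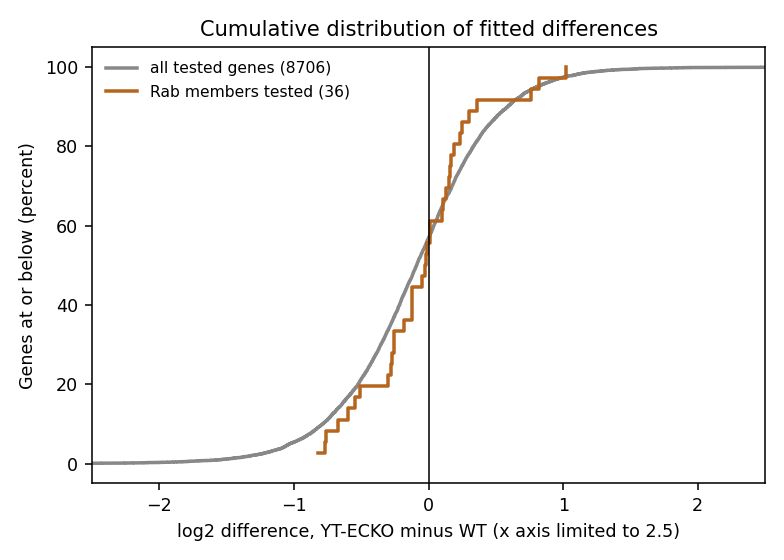
Cumulative share of genes (percent) against the fitted log2 difference, YT-ECKO minus WT, for the 36 tested Rab members and all 8706 tested genes. The medians lie at -0.03 and -0.09, and the Rab members end at -0.82 and 1.02 while the line of all genes runs on to both sides.

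YAP and TAZ act on DNA through TEAD factors, whose core site is GGAATG, so promoters were searched for these letters and their reverse complement CATTCC. RefSeq promoters (GRCm38.p6, 250 bases before to 50 after a start site) were found for 48 of the 59 members, and 7 of the 48 (14.6%) held a match. Of the 27025 genes with a promoter in that table, 16.6% held one, so the share was close to that of genes at large. A match is a string of letters and not a bound site. The 5 tested members with a match are shown with up to 10 bases to each side, on the gene's own strand with the match in capitals, so that the letters can be set beside the values above.
Rab5a, chr17:53479018-53479043: cccccctcttCATTCCtgacgctcct
Rab21, chr10:115315773-115315798: gctttgggacCATTCCtcgggccggg
Rab11a, chr9:64737827-64737852: cactcctgcgCATTCCaccctgccta
Rab11b, chr17:33760479-33760504: aaaaggtccgCATTCCttccgccttt
Rab13, chr3:90213744-90213764: cgaatgcaacGGAATGcccgt
The differences of these 5 were -0.03, -0.18, -0.12, 0.19 and 0.30. The promoter of Rab8b (chromosome 9, 66919656 to 66919955) held no match. Rab4a was among the members for which no promoter was found, so none was searched for it.

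Promoter composition was set beside detection. Promoters of the members above 0 in all 8 libraries had a median GC content of 63.5% with 25.5 CpG dinucleotides per 300 bases (24 genes with a promoter). Those of members at 0 in all 8 had 58.7% and 10 CpG (9 genes). Over all listed genes the same classes had 62.3% and 23, and 49.7% and 4, so Rab genes showed the same order as genes at large.

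The machinery that switches Rabs was examined through 4 lists chosen by textbook role, of exchange factors, GTPase-activating proteins, escort and prenylation factors, and effectors, 144 listed genes in all. Of the 100 tested, 0 passed the adjusted threshold, 53 were lower and 47 higher in YT-ECKO, and the median difference was -0.05. At an unadjusted limma p under 0.05 there were 5, all lower, against 3.69% of all tested genes for that direction. Medians were 0.03 for 33 exchange factors, -0.08 for 29 GTPase-activating proteins, -0.15 for 7 escort and prenylation factors and -0.06 for 31 effectors.

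Rabggtb, the catalytic beta subunit of the enzyme that attaches geranylgeranyl lipids to Rabs, stood at 3245, 2266, 1912 and 2323 scaled reads in WT and at 98.6, 0, 2813 and 947 in YT-ECKO. YT-ECKO 3 lay within the WT range and the other 3 below it, and the difference was -2.20 ± 0.81 (SE; limma adjusted p = 0.823). Ggps1, which makes the geranylgeranyl donor, stood at 0, 168, 109 and 382 in WT and at 89.3, 1088, 1033 and 347 in YT-ECKO, a difference of 1.25 ± 0.64 (SE). Without YT-ECKO 3 the limma adjusted p of Rabggtb was 0.0512, and under the other alternatives it ran from 0.623 to 0.998. Neither gene passed, and both overlapped between the groups.

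Of the effectors, Ehbp1l1, which links Rab8 to membrane tubules, stood at 1150, 2064, 1912 and 692 scaled reads in WT and at 874, 585, 430 and 4.61 in YT-ECKO. Its difference of -1.62 ± 0.57 (SE) had an unadjusted limma p of 0.00885 and an adjusted p of 0.698. Rabepk, a partner of Rab9, stood at 223, 112, 19.9 and 196 in WT and at 0, 4.42, 7.65 and 0 in YT-ECKO. It was the 1 gene of the 100 (1.0%) whose groups did not overlap, against 3.4% of all tested genes. Rabepk met the filter for testing through its WT libraries alone, since every YT-ECKO value lay under the minimum. The groups of a gene admitted in that way cannot overlap, so the lack of overlap carries no separate weight. With any WT library left out, or with the filter set in CPM, Rabepk was not tested. Its difference was -0.94 ± 0.38 (SE, limma adjusted p = 0.823).

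Of the exchange factors, Trappc6b, a TRAPP subunit, stood at 116, 301, 691 and 952 scaled reads in WT and at 0, 335, 0 and 151 in YT-ECKO, a difference of -1.36 ± 0.63 (SE). St5, an exchange factor for Rab13, stood at 1174, 576, 1018 and 1755 in WT and at 0, 2003, 587 and 200 in YT-ECKO, a difference of -1.24 ± 0.67 (SE). Both genes overlapped between the groups. Of the GTPase-activating proteins, Tbc1d1, known from glucose transporter traffic, stood at 1659, 903, 888 and 1731 in WT and at 1176, 131, 890 and 579 in YT-ECKO. Tbc1d10a, which acts on Rab27a and Rab35, stood at 244, 116, 249 and 26.9 in WT and at 698, 660, 159 and 332 in YT-ECKO. These also overlapped, and none of the 4 passed the adjusted threshold.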

How the data were processed

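Each library's deposited table pairs gene symbols with log2 values made by the authors. Bowtie2, edgeR and the build mm10 are named, per the submitters' processing notes, with counting tool and annotation not given in the sources used here. By the labels' protocols, 500 ng of total RNA went into each Lexogen Quant-Seq library; which part of a transcript was read is not settled by them. The unit was settled from the values: linear values summed to 10.3 to 10.9 M per library, and 89.8% to 100% of values under 12 lay within 0.1 of a whole multiple of a library's step. Depth is the total divided by that step.

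Of 24421 symbols per table, 24394 were shared. limma 3.58.1 (R 4.3.3) was fitted on all genes reaching 10 scaled reads in 4 or more libraries, on log2(scaled reads + 128), without covariates; differences on this scale understate the change of low genes. Functions were tested on simulated data. Members given with every library's value were 13 set by textbook role, plus the 4 lowest p of each main role; of each regulator list, the 2 lowest p. Some other members were given as means or ranges. Members, lists and roles were chosen with earlier results of these data known. Wwtr1 and Yap1 served as a check of the labels. The role of Rab42 was moved to other after its values were seen. The marker lists of astrocytes (72.1 to 115.5 CPM in WT, 48.1 to 103.3 in YT-ECKO), microglia (at most 15.0) and oligodendrocytes (at most 110.7) were also summed. Symbols were placed on GRCm38 with GENCODE M21, 59 of 59 matched, 1 through a RefSeq synonym. Sequences were read and aligned with Biopython 1.88.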

Additional observations from a re-analysis of the deposited data

Results flagged for a closer look

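For the 32 genes given with every library's value, 63 groups of 4 libraries with any spread were examined on the log2 scale. In 6 of them 1 library stood apart from the other 3 by Dixon's criterion. Chance meets it in about 1 of 20 groups of normally distributed values. That rate does not hold where the other 3 are all at 0, since any value above 0 then meets it. Rab11b in YT-ECKO 1 stood at 996 scaled reads, below 1298 to 1356 in the other YT-ECKO libraries. Rab2b in YT-ECKO 1 stood at 180 scaled reads with the other 3 at 0. In YT-ECKO 4, Rab3d stood at 156 and Rab27a at 379 scaled reads with the other 3 at 0, and Rab27b stood at 381 with the others at 0 to 17.7. Rab27b in WT 1 stood at 2.42 scaled reads with the other 3 at 0.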

How the results depend on the processing

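Under all 17 alternatives 0 Rab members passed the adjusted threshold in either direction, and the lowest adjusted p of a member in any of them was 0.691. The median difference of the members, -0.03, became -0.17 with upper quartile scaling, -0.10 with voom and -0.03 with the replicate block, and it ran from -0.14 to 0.06 with 1 library left out. Same-numbered libraries showed correlations of their deviations from -0.04 to 0.08. No pairing by number was seen, which does not exclude one, and the block changed no call of a member. The number of members without overlap and higher in YT-ECKO, 2, was 1 (Rab8b) with upper quartile scaling and 1 with Rn45s left out, where the groups of Rab4a overlapped, and 1 with the filter of 10 CPM in 4 libraries, under which Rab4a was not tested. With 1 library left out it was 2 to 3, and the number lower was 0 to 2 (Rab33b and Rab40c without WT 3). The number at an unadjusted p under 0.05, 0, was 2 with voom and 2 with no filter, and 1 with a pseudocount of 1 (Rab2b), without YT-ECKO 1 (Rab2b) and without WT 4 (Rab18). The cause was not tested. Signs turned for Rab5b with a pseudocount of 1 (-0.04), for Rab5b (-0.15), Rab5c (-0.11), Rab11b (-0.00) and Rab12 (-0.03) with upper quartile scaling, and for Rab5a (0.20) and Rab8a (0.19) with voom. Left-out libraries gave ranges that crossed 0 for Rab11a (-0.46 to 0.16), Rab12 (-0.08 to 0.34), Rab14 (-0.04 to 0.44), Rab31 (-0.08 to 0.78), Rab5a (-0.37 to 0.23), Rab5b (-0.23 to 0.48), Rab7 (-0.61 to 0.00), Rab8a (-0.36 to 0.21) and Rab9 (-0.49 to 0.04). The other 17 of the 28 genes recomputed, Rab8b (0.92 to 1.20) and Rab4a (0.58 to 0.97) among them, kept their sign in every alternative in which they were tested. The median of all tested genes moved from -0.09 to -0.28 with a pseudocount of 1, to -0.25 with voom and to -0.22 with upper quartile scaling. Depth was 6.76 to 16.8 M reads, and what it limits for low members was not tested.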
